A study of Tupaia belangeri with 6 samples.

Results

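The named genes on unplaced contigs are the annotated genes of the tree shrew genome that lie on sequence pieces not joined to any chromosome. They were taken from the gene abundance tables as loci with a strand and a gene name on a reference sequence whose name does not start with chr, and rows of the same gene ID and contig were summed. This rule found 1413 genes, 6.25% of the 22608 named genes with a strand, and the same 1413 in each of the 6 tables. RNA from the prefrontal cortex (PFC) of 3 females (numbered 1, 3 and 4) and 3 males (numbered 1, 4 and 5) of the adult tree shrew Tupaia belangeri was sequenced after poly(A) enrichment. The animals were given isoflurane, ketamine and pentobarbital for anesthesia and euthanasia. No other treatment and no altered allele is stated, and each library came from 1 animal. The study lists every male as older than every female, so that sex and age cannot be told apart here. Coordinates are those of the genome TS_3.0 as the tables give them.

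Unplaced contigs remain in a draft assembly where repeats, near-identical copies or a sex chromosome keep a stretch of sequence from being anchored. They can hold complete genes, fragments of genes cut at the end of a contig, and second copies of genes that are also placed on a chromosome. The TS_3.0 assembly has no Y chromosome, and Y-linked genes can therefore lie on such contigs, although the study also found Y-linked stretches joined to other chromosomes. The study sorted the contigs into Autosome-linked, X-linked and Y-linked classes by the ratio of DNA read depth between these same females and males, so the classes are not independent evidence on these animals. Expression is given in TPM, transcript abundance per length scaled to the library. TPM keeps no depth, so no counting interval can be given, and values of genes that overlap or that share near-identical copies are uncertain because no strand-specific library is stated.

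The contig genes carried a small and similar part of each library. They summed to 37231, 35281 and 40685 TPM in females 1, 3 and 4, and to 32424, 36677 and 29848 TPM in males 1, 4 and 5. These sums were 3.83%, 3.65% and 4.21% of the library TPM in the females, with male shares of 3.41%, 3.82% and 3.12%. Male 4 lay among the females, and male 5 held the smallest share. The difference of 0.445 percentage points between the female and male means was not separable from the spread of the animals (exact two-sided permutation test, p = 0.2, where 3 against 3 animals cannot go below 0.1). It was 0.279 points without male 5, 0.290 points without female 4 and 0.632 points without male 4. Without males 1 and 5, an exclusion chosen after seeing the data that removes the lowest shares, it was 0.0718 points. Loci without a strand, which are not members, took 5.16% and 7.88% of the TPM in males 1 and 5, against 2.30% to 3.33% in the other 4 libraries. With the share taken of loci with a strand alone, the difference was 0.370 points (exact permutation test, p = 0.3). Any further part of these loci in the contig share was not tested.

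Most of the contig genes were weak or listed at 0. Of the 1413 genes, 578 (40.9%) were at 0 TPM in all 6 animals, 510 were above 0 in all 6, and 325 were above 0 in some. On chromosomes, 27.3% of the named genes were at 0 throughout. At least 1 TPM in every animal was reached by 397 contig genes (28.1%), against 45.8% of the named chromosome genes. Between 609 and 695 contig genes were above 0 in a single library, and between 54 and 78 reached 100 TPM.

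A few genes carried most of the contig TPM. The strongest gene, TMSB4X, held 11.4% of the mean contig TPM, the first 5 genes held 31.0% and the first 12 held 43.8%. The first 18 genes held 50% of the TPM and the first 160 held 90%. The strongest 1% of the contig genes held 46.4% of their TPM, against 35.0% for the strongest 1% of named chromosome genes. The 12 highest genes of each library together held 41.8% to 49.6% of its contig TPM, with the highest share in male 1.

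**Figure D1:**
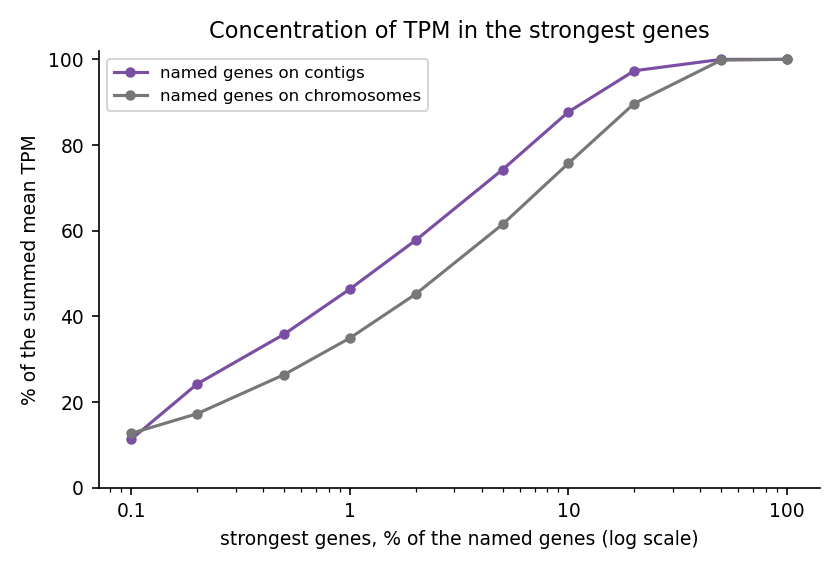
Percent of summed mean TPM (vertical axis) held by the strongest genes, given as a percent of the named genes of each set (horizontal axis, log scale), for the 1413 genes on contigs and the 21195 named genes on chromosomes. From 0.2% of the genes up to 50% the contig curve lies above the chromosome curve, for example 46.4% against 35.0% at 1%.

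Among the strongest contig genes were TMSB4X and TUBB4A, which act in the cytoskeleton and are grouped here after their values were seen. Of the 4 contig genes on the list of tubulins and actins, which does not hold TMSB4X, 3 reached 1 TPM in every animal. TMSB4X, which encodes thymosin beta 4, a protein that binds actin monomers, lay on contig45854 (plus strand, 29816 to 48666) in the X-linked class and ranked 6 among all named genes by mean TPM. It had 3803, 3682 and 4173 TPM in females 1, 3 and 4 and 6101, 3151 and 3237 TPM in males 1, 4 and 5, and was the highest contig gene in each library. Male 1 stood well above the other 5 animals, and males 4 and 5 lay below every female. TUBB4A, a beta tubulin of neurons and oligodendrocytes on contig623, had 1304, 1305 and 1449 TPM in the females and 1248, 1092 and 987 TPM in the males, so that every female lay above every male. A second beta tubulin gene, TUBB4Bli1 on contig8241, had 195 to 205 TPM in the females and 146 to 193 TPM in the males, again without overlap of the sexes. The third, ACTL6Ali2, named for an actin-related protein of chromatin complexes, had 6.83 to 15.7 TPM. Neither tubulin passed the sex test described further on (adjusted p = 0.925 for TUBB4A and 0.923 for TUBB4Bli1, limma).

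Several of the named contig genes, grouped here after their values were seen, act in neuronal secretion and at synapses. PCSK1N, which encodes proSAAS, an inhibitor of the prohormone convertase of neurons and endocrine cells, lay on contig6906 in the X-linked class and had 2696, 2159 and 3598 TPM in the females and 2076, 2771 and 2438 TPM in the males. Female 4 was highest and male 1 lowest, and the sexes overlapped. SYP, encoding the synaptic vesicle protein synaptophysin, had 789, 799 and 881 TPM in the females and 417, 834 and 549 TPM in the males, with male 1 lowest and male 4 between the females. The SYP row begins at base 8 of contig19980. GRIN1li1 carries the name of GRIN1, the subunit that every NMDA-type glutamate receptor contains, and had 743, 692 and 1019 TPM in the females and 578, 848 and 577 TPM in the males. UNC13Ali1, named for a protein that primes synaptic vesicles for release, was lower, with 139, 155 and 100.1 TPM in the females and 115, 149 and 164 TPM in the males. HCN2, a channel opened by hyperpolarization, had 148, 153 and 143 TPM in the females and 77.4, 157 and 100.4 TPM in the males. Both genes overlapped between the sexes, and HCN2 was lowest in males 1 and 5.

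Other named contig genes, again grouped after their values were seen, encode mitochondrial proteins. Of the 6 contig genes on the list of oxidative phosphorylation subunits, 3 were at 0 in all animals and 1, COX7Bli1, reached 1 TPM in each. SLC25A6li2, named for an ADP/ATP carrier of the inner mitochondrial membrane, lay on contig16420 (plus strand, 5345 to 8699) and had 2215, 1957 and 2525 TPM in the females and 1259.9, 2235 and 1379.6 TPM in the males. Males 1 and 5 were below the other 4 animals, and male 4 was level with the females. SLC25A5li8, named for a related ADP/ATP carrier, held the steadiest level of the contig genes with a mean of at least 10 TPM. It ranged from 306 to 329.8 TPM in the females and from 285 to 301 TPM in the males, a coefficient of variation (CV) of 5.39% over the 6 animals. MPC1, a subunit of the mitochondrial pyruvate carrier, had 489.6, 443 and 639 TPM in the females and 595, 523 and 491 TPM in the males. COX7Bli1, named for a subunit of cytochrome c oxidase, had 319, 249 and 356 TPM in the females and 698, 304 and 335 TPM in the males, where male 1 alone stood apart. PDHA1li1, named for a subunit of pyruvate dehydrogenase, had 104 to 151 TPM over the 6 animals.

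The other genes among the first 12 have varied roles. TLE5, a transcriptional corepressor, had 1261, 1005 and 1630.4 TPM in the females and 716, 1284 and 958 TPM in the males. GZMM, a granzyme of lymphocytes, had 660.2, 534 and 800.0 TPM in the females and 421, 650.1 and 421 TPM in the males. TLE5 and GZMM were highest in female 4 and lowest in males 1 and 5. The GZMM row on contig2260 (plus strand, 7096 to 26872) spans the row of BSGli1 (minus strand, 19558 to 22741), named for basigin, which had 3.14 to 11.5 TPM, so reads of this stretch could be split between the rows. MISP, an actin-bundling protein of dividing cells, had 424 to 609 TPM in the females and 374 to 599 TPM in the males. MRFAP1li1, named for a partner of the MORF4 family, had 495 to 546 TPM in the females and 416 to 476 TPM in the males, without overlap. TSORFli2504, which carries no functional name, had 855, 1140.5 and 949 TPM in the females and 1536, 731 and 707 TPM in the males, with male 1 highest as for TMSB4X and COX7Bli1.

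**Figure D2:**
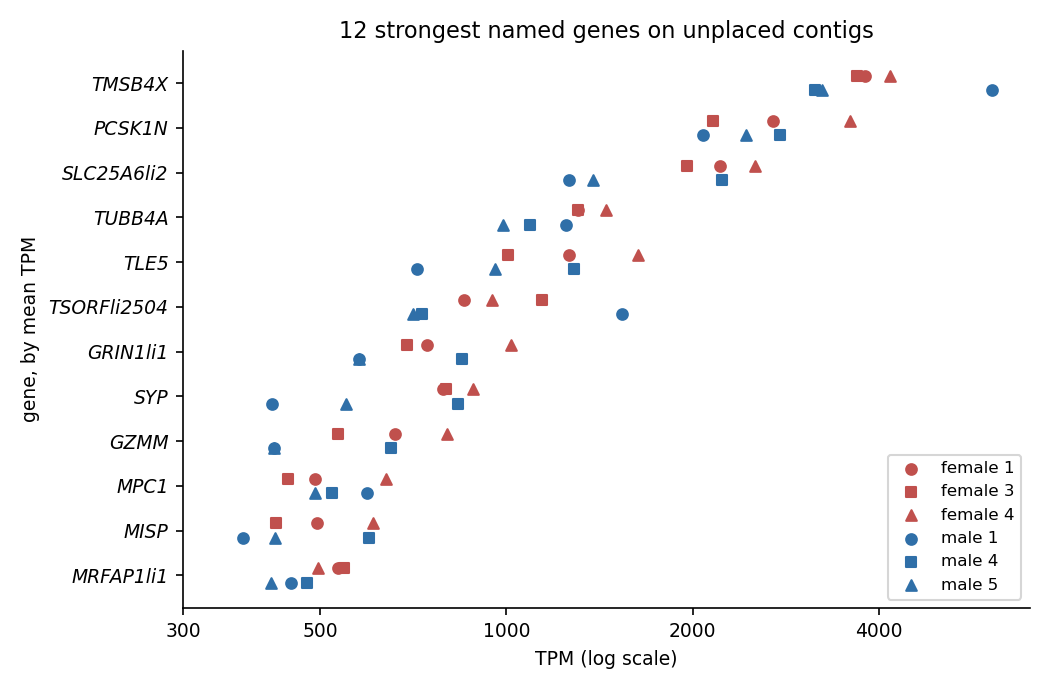
TPM (horizontal axis, log scale) of the 12 contig genes with the highest mean TPM (vertical axis, in order of the mean) in each of the 3 female (red) and 3 male (blue) libraries, 1 symbol per library. The sexes overlap in 10 of the 12 genes, and male 1 is the highest library for TMSB4X at 6101 TPM and the lowest for SYP at 417 TPM.

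Contigs with a high TPM mostly owed it to 1 gene. Of the 1292 contigs with any locus, 774 held a member, 425 of them 1 member each, and contig8241 held the most with 11. The first contig by TPM, contig45854, carried 11.4% of the contig TPM through TMSB4X, while its other gene, the RNA sensor TLR8, had 0.120 to 1.501 TPM. On contig6906, PCSK1N lay beside ERAS, a RAS family gene of embryonic stem cells, which had 0.682, 0.221 and 1.77 TPM in the females and 0 in every male. On contig16420, SLC25A6li2 lay beside IL3RA, a cytokine receptor subunit, which had 0 to 0.810 TPM. The human SLC25A6 and IL3RA genes are neighbours in the region that the human X and Y chromosomes share. The study put contig16420 in the Autosome-linked class.

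Other contigs held runs of genes that are also neighbours in the human genome. On contig2260, 10 genes carried 4.34% of the contig TPM, in the order CDC34, GZMM, BSGli1, HCN2, POLRMT, FGF22, RNF126, MISP, PTBP1 and PLPPR3. Besides GZMM, MISP and HCN2, these had between 3.14 TPM (BSGli1 in male 1) and 112 TPM (CDC34, a ubiquitin-conjugating enzyme, in female 4). PTBP1, a splicing repressor of non-neuronal cells, had 28.7, 37.2 and 23.0 TPM in the females and 19.6, 54.2 and 37.8 TPM in the males. Contig929 held TLE5, its relative TLE2, the peptidase gene THOP1 and the zinc transporter gene SLC39A3, and carried 3.78% of the contig TPM. On contig8241, GRIN1li1 was followed by SSNA1li1, SSNA1, NDOR1, TMEM203, RNF208, CYSRT1, TUBB4Bli1, FAM166A, STPG3 and NELFBli1. Of these, RNF208, a RING finger gene, had 109.7 to 193 TPM, and TMEM203, FAM166A and STPG3 were listed at 0 in every animal.

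No contig gene shared its exact name with a chromosome gene, since every name occurs once in the tables. Many names end in li and a number, as GRIN1li1, and the same base name can then stand on a chromosome. Such a suffix was carried by 995 of the 1413 contig genes (70.4%), against 37.2% of the named chromosome genes. The 995 carried 29.9% of the contig TPM, and their median mean level was 0 TPM, against 7.31 TPM for the 418 genes without the suffix. Among the 995, 117 were named TSORF with such a suffix and carried 3.71% of the contig TPM. They were left out of the comparison by base name, since TSORF names no particular gene.

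The contig genes without a chromosome relative in name carried most of the TPM. With the suffix removed on contigs and chromosomes alike, a comparison chosen after the values were seen, 769 contig genes (54.4%) had the base name of at least 1 chromosome gene, and these carried 21.9% of the contig TPM. The 527 whose base name occurred on no chromosome carried 74.4%, and 282 of them reached 1 TPM in every animal. By library the latter share lay between 72.9% in female 3 and 75.2% in female 4. TMSB4X, PCSK1N, TUBB4A, TLE5 and SYP belong to this set, as does COX7Bli1.

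For the base names that occurred on both, the level was usually on 1 side. Of 433 such base names, 352 had at least 1 TPM over contig and chromosome rows together. Of these, 240 had under 10% of their TPM on contigs, 77 had between 10% and 90%, and 35 had over 90%. In single libraries the number above 90% was 41, 39 and 43 for the females and 40, 32 and 38 for the males. FTH1, the ferritin heavy chain, is of the first kind, with 14 chromosome rows at 8272 TPM and 2 contig rows at 0. RPL21, a protein of the large ribosomal subunit, had 163 chromosome rows with 1378 TPM and 17 contig rows with 7.65 TPM.

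The 35 base names with over 90% of their TPM on contigs include genes of high level. SLC25A6 had 1928 TPM on contig16420, against 0.0408 TPM on chromosome 10 and 0 on chromosome 28. MRFAP1 had 486 TPM on contig1863 and 0.485 TPM on chromosome X. PIP5K1C, a lipid kinase of synapses, had 317 TPM on contig798 and 0.956 TPM on chromosome 27. TUBB4B had 183 TPM on contig8241 and 0.367 TPM on chromosome 11. MORF4L2 had 182 TPM on contig5591 against a sum of 0.189 TPM over 5 chromosome rows.

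Some base names were measured in both places. GRIN1 had a contig row of 13521 bp with a mean of 743 TPM and a chromosome 2 row of 4379 bp (95459839 to 95464217) with a mean of 388 TPM. The chromosome row had 523, 602 and 143 TPM in females 1, 3 and 4 and 229, 433 and 398 TPM in males 1, 4 and 5. Female 4 was thus the highest of the animals on the contig, at 1019 TPM, and the lowest on the chromosome. TSC2, a brake on the mTOR kinase, had 208 TPM on contig6370, 64.9 TPM on contig8924 and 46.1 TPM on chromosome 2. The TSC2 chromosome row and the contig8924 row were both higher in female 3 than in female 4 (76.8 against 18.0 TPM and 72.8 against 50.3 TPM), whereas the contig6370 row was lower in female 3 (176 against 297 TPM). UNC13A had 137 TPM on contig8050 and 18.4 TPM on chromosome 27, and NRG3, a neuregulin that signals through ERBB4, had 47.5 TPM on contig7803 and 122 TPM on chromosome 14.

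**Figure D3:**
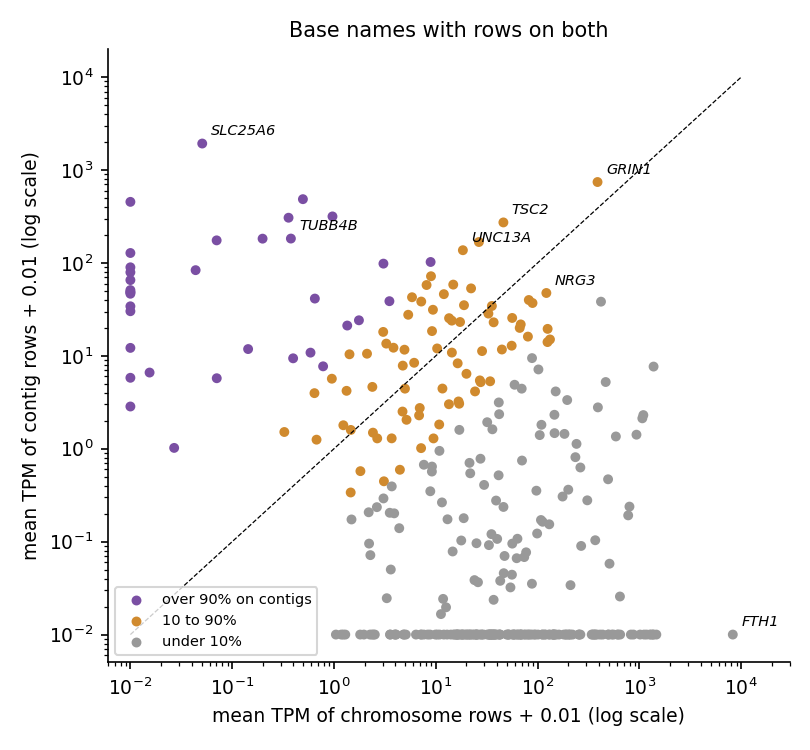
Mean TPM over 6 animals of the chromosome rows (horizontal axis) and of the contig rows (vertical axis) of the 352 base names with at least 1 TPM in all, both plus 0.01 on log scales, with equality as the dashed line. The 35 names above 90% on contigs sit at the upper left, the 240 names under 10% at the lower right, and GRIN1 has the highest contig level of the 77 between them at 743 TPM.

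Gene groups differed in how many of their contig members were expressed. Of all contig genes, 40.9% were at 0 in all animals and 28.1% reached 1 TPM in each. Of 76 contig genes named as cytosolic ribosomal proteins, 54 were at 0 in all animals and 3 reached 1 TPM in each animal. The group carried 1.34% of the contig TPM. Of 92 olfactory, vomeronasal and taste receptor genes, 79 were at 0 throughout and none reached 1 TPM in every animal; 56 of the 92 were copies named VMN2R116, a vomeronasal receptor. Of 75 genes with retroelement names, a list added after the data were seen, 30 were at 0 throughout, close to the share of all contig genes. Of these 75, 3 reached 1 TPM in each animal, among them ENVli102 with 9.08 to 23.0 TPM and POLli123 with 10.1 to 14.5 TPM.

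The solute carrier and neuronal channel groups were small on contigs but mostly expressed. Of all 1413 contig genes, 510 were above 0 in every animal and 28.1% reached 1 TPM in each. Of 16 solute carrier genes, 12 were above 0 in all animals and the group carried 7.16% of the contig TPM. Besides SLC25A6li2 and SLC25A5li8 it held SLC39A3 with 48.8 to 88.9 TPM. Of 9 ion channel and receptor genes, 6 reached 1 TPM in every animal, with 2.26% of the TPM. This list does not hold HCN2 or ADORA2Ali1, whose values are given elsewhere. Within it, GRIN1li1 was followed by KCNT2li1, named for a sodium-activated potassium channel, with 7.78 to 36.0 TPM, and the metabotropic glutamate receptor gene GRM4 with 11.1 to 30.1 TPM. Of 49 zinc finger genes, 14 reached 1 TPM in each animal, a share close to that of the contig genes as a whole (28.1%), among them ZNF581 with 318 to 624 TPM and ZNF639li1 with 60.0 to 90.9 TPM. The ZNF581 row spans 1949 to 67468 of contig1909 and overlaps ZNF784 on the opposite strand.

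In the remaining groups few genes reached a high level. Among 11 translation factor genes, EIF2AK1, a kinase that halts translation under heme deficiency, had 39.9 to 90.3 TPM, and EIF2S3li2 had 33.9 to 51.0 TPM. Among 10 splicing and RNA-binding genes, HNRNPAB had 73.2 to 104 TPM and RBMX2 had 5.53 to 18.3 TPM. DNAJC13li1, named for an endosomal co-chaperone, had 19.6 to 44.0 TPM and was the 1 chaperone gene of 9 to reach 1 TPM in every animal. No keratin gene of the list used occurred among the contig genes. The list of mitochondrially encoded genes matched no name on contigs or chromosomes and so tells nothing.

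By the study's contig classes, 949 contig genes on 459 contigs were Autosome-linked, 428 on 287 contigs were X-linked, 21 on 19 contigs were Y-linked, and 15 on 9 contigs had no class. The Autosome-linked genes carried 62.4% of the contig TPM and summed to 23906, 22203 and 26563 TPM in the females and 17716, 24255 and 17649.5 TPM in the males. Males 1 and 5 were below the other 4 animals, and male 4 was within the female range (exact permutation test, p = 0.3). The difference of the means was 4350.4 TPM with all animals, 6541 TPM without male 4, and −30.8 TPM when males 1 and 5, the libraries with the most TPM on loci without a strand, were left out. That last exclusion was chosen after seeing the data and removes the lowest sums.

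The X-linked genes carried 37.6% of the contig TPM, and their sums did not separate the sexes. They summed to 13314, 13068 and 14111 TPM in the females and 14689, 12406 and 12181 TPM in the males, with male 1 highest and male 5 lowest (exact permutation test, p = 0.6). The difference of 405.5 TPM between the means became −49.9 TPM without male 5, and −134 TPM when TPM was rescaled to loci with a strand. After TMSB4X, PCSK1N and SYP, the strongest were COX7Bli1 and BCAP31, a chaperone of the endoplasmic reticulum with 368 to 494 TPM in the females and 231 to 381 TPM in the males. ATP6AP2, an accessory protein of the vacuolar proton pump, had 210.3 to 293 TPM over the 6 animals, and IDS, the lysosomal iduronate sulfatase, had 119.8 to 282 TPM.

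Genes with a partner on the Y chromosome in placental mammals were a further group, and 17 of them were on contigs. They carried 12.3% of the contig TPM, nearly all of it through TMSB4X. DDX3X, an RNA helicase, had 202, 279 and 147 TPM in the females and 146, 186 and 154 TPM in the males, with female 3 highest and the sexes overlapping. EIF2S3li2, named for the gamma subunit of the initiation factor that brings the first transfer RNA to the ribosome, overlapped between the sexes at 44.5, 51.0 and 33.9 TPM in the females and 42.2, 39.2 and 37.2 TPM in the males. KDM5C, a histone demethylase, had 38.4, 37.0 and 38.9 TPM in the females and 16.0, 34.4 and 27.5 TPM in the males, all below the females. HCFC1, a chromatin cofactor, ran the other way without overlap, with 29.2, 30.7 and 28.0 TPM in the females and 36.8, 36.0 and 33.3 TPM in the males. None of these 4 passed the sex test (adjusted p = 0.923 for DDX3X, KDM5C and HCFC1 and 0.969 for EIF2S3li2, limma).

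The Y-linked contigs held few expressed named genes. Of their 21 genes, 16 were at 0 in all animals, and all 21 together carried 0.0178% of the contig TPM. They summed to 2.73, 0.760 and 1.41 TPM in the females and 9.82, 11.04 and 11.9 TPM in the males, without overlap (difference of the means −9.30 TPM, exact permutation test, p = 0.1, which is as low as 3 against 3 animals can go). The class holds contigs with little DNA read depth in these same females. A higher male sum was thus built into the choice of contigs, and the test adds no support. TXLNGli1, named for gamma taxilin, a protein of vesicle traffic, made up most of the male sum. It was listed at 0 in every female and had 7.66, 7.19 and 9.24 TPM in males 1, 4 and 5 on contig8064 (plus strand, 52970 to 150053). UBA1li2, named for the enzyme that activates ubiquitin, was at 0 in every female and had 1.35, 3.16 and 2.19 TPM in the males on contig3401. TXLNG without a suffix lay on contig5144 of the X-linked class and had 6.73, 6.96 and 3.98 TPM in the females and 2.03, 4.44 and 4.57 TPM in the males. DSTNli4 and GAGli53, also on contigs classed as Y-linked, were above 0 in every female and male.

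**Figure D4:**
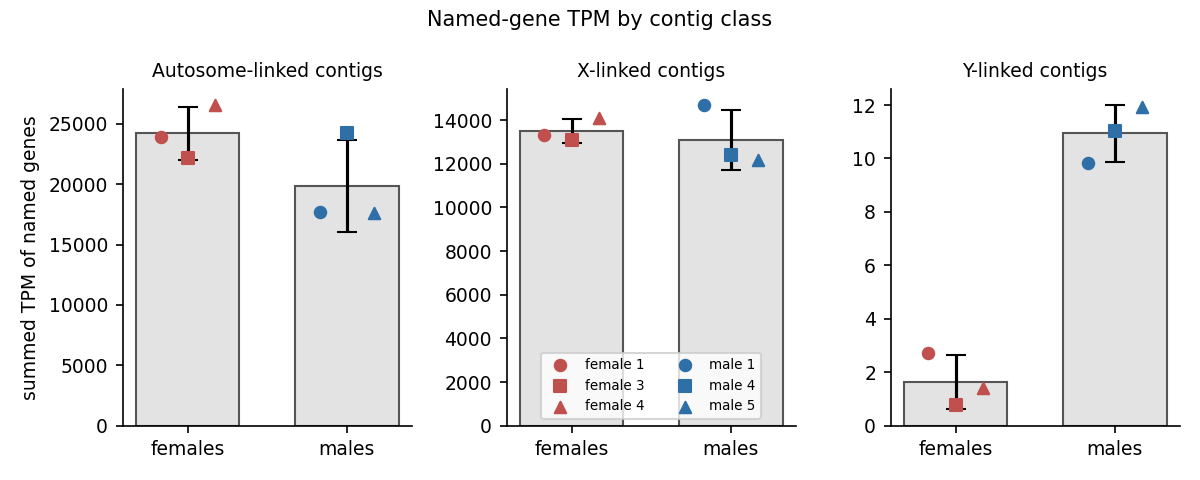
Summed TPM of the named genes on Autosome-linked, X-linked and Y-linked contigs (1 panel each, with its own vertical scale from 0) in females and males, with points for single animals, bars for the mean and error bars for the SD (n = 3). On Y-linked contigs the males sit between 9.82 and 11.9 TPM and the females between 0.760 and 2.73 TPM, and in the other classes the sexes overlap.

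TXLNGli1 and UBA1li2 were the 2 contig genes above 0 in every male and at 0 in every female. Among the 54953 loci above 0 in any animal, 0.488% had this pattern, and 835 contig genes were above 0 in any animal. The reverse pattern, seen in 0.495% of those loci, was found in 7 contig genes, namely ERAS, MICBli2, RALGDSli23, RALGDSli24, ZFP39li35, TSORFli2545 and TSORFli2553. The highest value among these 7 in any female was 1.77 TPM, for ERAS.

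To compare the sexes gene by gene, the female minus male difference of log2(TPM + 1) was tested with limma over all loci that reached 0.1 TPM in at least 3 of the 6 animals, and called at a Benjamini-Hochberg adjusted p below 0.1. This scale understates changes of weak genes. Of 30270 loci tested, 8 were called, a share of 0.0264%. Of the 625 contig genes tested, 0 were called, while at an unadjusted p under 0.05 females had the higher level of 30 genes and males of 5. For all loci tested those shares were 2.45% and 2.63%, for the contig genes 4.80% and 0.800%, and for the named chromosome genes 2.75% and 1.02%. With 1 animal left out, the contig genes higher in females numbered between 16 and 76 and those higher in males between 3 and 10. The 3 females lay entirely above the 3 males in 52 contig genes (8.32%, against 4.92% of all loci and 5.93% of the named chromosome genes) and entirely below in 18 (2.88%, against 5% of all loci and 3.39% of the named chromosome genes). In simulated data the same fit recovered 16% of the genes changed by a log2 difference of 1 and 66% of those changed by 2. The changed genes all had a mean log2(TPM + 1) above 2, and the noise was independent between animals. Recovery of weaker genes, or under shifts of a whole library, was not simulated.

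The contig genes leaned toward higher values in females. The median log2 difference was 0.14 for the 625 contig genes, 0.04 for the named chromosome genes and −0.03 for all loci, and 412 contig genes (65.9%) were higher in the female mean, against 55.6% of the named chromosome genes and 46.9% of all loci. Among Autosome-linked contig genes, 302 of 419 were higher in females with a median of 0.17, and among X-linked contig genes 107 of 201 with a median of 0.02. The median of the contig genes was 0.07 without male 1, 0.22 without male 4 and 0.10 without female 3. Without males 1 and 5 it was −0.0085. This exclusion was chosen after seeing the data and removes the libraries with the lowest contig share, which by itself favours a smaller lean. That comparison keeps male 4 as the 1 male, whose spread is then taken from the females.

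The smallest p-values on the male side belonged to the Y-linked genes described above. TXLNGli1 differed by −3.17 (SE 0.465, adjusted p = 0.221, limma) and UBA1li2 by −1.66 (SE 0.398, adjusted p = 0.909, limma). With every female at 0, these sizes depend on the pseudocount and unit. With a pseudocount of 0.01 they were −9.64 and −7.73, and with FPKM −1.58 and −0.62. TXLNGli1 was called with a filter of 1 TPM (adjusted p = 0.0398), without the mean-variance trend (0.0284) and among loci with a strand alone (0.0260, limma throughout). TXLNGli1 and UBA1li2 passed the filters only through the males, where they were high, so these p-values and calls add no separate support. NDP, which encodes norrin, a WNT-pathway ligand needed by retinal and brain vessels, had 51.6, 65.5 and 69.7 TPM in the females and 84.5, 73.6 and 106 TPM in the males, without overlap (difference −0.49, adjusted p = 0.923, limma). TAMM41li3, named for a mitochondrial enzyme of cardiolipin synthesis, had 0 to 0.421 TPM in the females and 1.03 to 5.39 TPM in the males, and TSORFli2548 had 0.288 to 1.33 TPM and 3.33 to 3.85 TPM.

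On the female side, the 5 contig genes with the smallest p were among the 52 (8.32%, against 4.92% of all loci) without overlap of the sexes. Choosing genes by p favours this pattern. REEP6, which shapes the endoplasmic reticulum, had 32.3, 30.6 and 30.2 TPM in the females and 16.8, 19.7 and 16.1 TPM in the males, a difference of 0.80 (SE 0.191, adjusted p = 0.909, limma). PLIN3li1, named for a lipid droplet coat protein, had 84.0, 59.4 and 54.4 TPM in the females and 42.1, 24.2 and 27.9 TPM in the males. FAM163B, a gene of brain with no settled role, had 434, 368 and 307 TPM in the females and 204, 229.9 and 113 TPM in the males. It overlaps ADAMTSL2li1 on contig4993. TNFAIP8L1, of a family of lipid-binding regulators of cell death, had 12.3, 14.4 and 21.5 TPM in the females and 5.43, 8.88 and 5.87 TPM in the males. RAB26, a GTPase of secretory vesicles, had 78.8, 66.4 and 107 TPM in the females and 38.7, 60.3 and 42.0 TPM in the males. The adjusted p of PLIN3li1 was 0.909, and that of FAM163B, TNFAIP8L1 and RAB26 was 0.923 (limma).

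A further 5 of the 30 are named here after their values were seen, without a list fixed for them, and show nothing about a group. FA2H, which makes the hydroxylated lipids of myelin, had 50.6, 47.6 and 28.7 TPM in the females and 31.6, 10.1 and 6.02 TPM in the males. GJB1, a gap junction protein of myelinating cells, had 15.8, 17.8 and 9.90 TPM in the females and 10.02, 3.19 and 0.623 TPM in the males. SOX8, a transcription factor of oligodendrocytes and other glia, had 63.6, 64.1 and 47.2 TPM in the females and 41.1, 32.0 and 7.53 TPM in the males. In FA2H and GJB1, male 1 lay above female 4, and male 5 was lowest in each of the 3 genes. HLA-DPA1li2 and HLA-DPB1li1, named for the chains of an MHC class II molecule and both on contigs of the X-linked class, had 16.3 to 22.5 and 13.3 to 18.1 TPM in the females and 0 to 8.30 and 2.97 to 8.66 TPM in the males. The adjusted p of each of these 5 genes was 0.923 (limma). Of other contig genes with MHC names, 1A01liN and PATR-Ali5 overlapped between the sexes, and MICBli2 had 0.132, 0.571 and 0.572 TPM in the females and 0 in every male.

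Markers of other cells varied between the same libraries. The oligodendrocyte markers MAG, MOG and MBP, 3 of 5 listed, summed to 348 to 482 TPM in the females and 80.7 to 236 TPM in the males, none at 0. The blood genes HBQ1 and ALAS2, 2 of 4 listed, summed to 725 to 1257 TPM in the females and 22.3 to 55.2 TPM in the males. The microglial markers, 5 of 6 listed, summed to 211 to 223 TPM and 149.8 to 294 TPM. Astrocyte markers, all 5 listed, summed to 1404 to 2079 TPM in the females and 1432 to 2184 TPM in the males. Endothelial markers, all 4 listed, summed to 352 to 420 TPM and 311 to 468 TPM. The sexes overlapped in the microglial, astrocyte and endothelial sums. Neuronal markers, 5 of 6 listed, summed to 5906 to 7478 TPM in the females and 5613 to 6774 TPM in the males, so that the labelled tissue showed its neuronal markers in every library. Fewer cells of a type and less RNA per cell cannot be told apart in these bulk libraries, and the part of cell content in the differences of the contig genes was not tested.

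**Figure D5:**
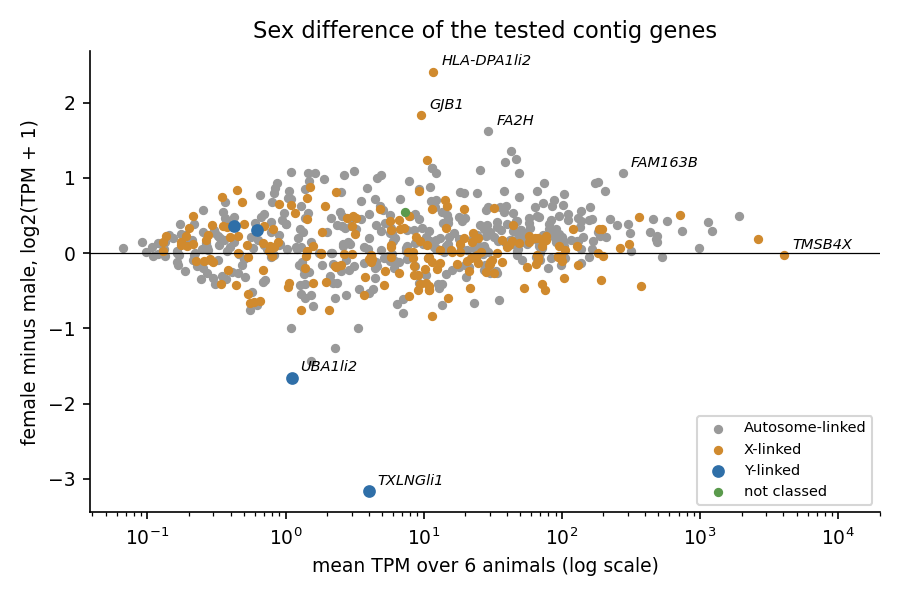
Female minus male difference of log2(TPM + 1) (vertical axis) against mean TPM over 6 animals (horizontal axis, log scale) for the 625 contig genes tested, 1 point per gene, coloured by the study's contig class. TXLNGli1 (−3.17) and UBA1li2 (−1.66) of the Y-linked class lie lowest, HLA-DPA1li2 (2.41) and GJB1 (1.84) highest, and TMSB4X (−0.03) lies near 0.

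The spread over the 6 libraries was moderate for most expressed contig genes. Among the 292 with a mean of at least 10 TPM, the CV had a median of 25.4%, against 20.9% for the 7234 named chromosome genes at that level. After SLC25A5li8, steady genes included SNX12, a sorting nexin (CV 9.83%), MRFAP1li1 (10.3%) and AIFM1, a mitochondrial flavoprotein (10.3%). The most variable was 1A01liN, named for an MHC class I chain, with 0.536, 2.40 and 72.7 TPM in females 1, 3 and 4 and 36.3, 2.08 and 0.359 TPM in males 1, 4 and 5, a CV of 156%. Female 4 and male 1 were high and the other 4 animals low. ADORA2Ali1, named for an adenosine receptor that is most abundant in striatum, had 89.6, 50.4 and 5.92 TPM in the females and 79.0, 4.78 and 4.53 TPM in the males (CV 101%). Females 1 and 3 and male 1 were high and the other 3 animals low, in both sexes. PATR-Ali5, another MHC class I name, was highest in female 4 at 37.5 TPM and lay between 7.25 and 13.4 TPM elsewhere.

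High and low values of the contig genes gathered in certain libraries. Of the 292 genes, 121 (41.4%) were lowest in male 1 and 65 (22.3%) in male 5, while 92 (31.5%) were highest in female 4 and 63 (21.6%) in male 4. Among the named chromosome genes at the same level, 25.5% were lowest in male 1, 18.6% lowest in male 5, 16.5% highest in female 4 and 12.9% highest in male 4. Female 4 was lowest for 30.9% of these chromosome genes and for 17.5% of the contig genes. The pattern belonged to the Autosome-linked contigs, where 101 of 201 genes were lowest in male 1 and 56 in male 5. On X-linked contigs, 20 of 91 genes were lowest in male 1 and 35 in female 4. SYP, REXO1li1, TLE5, TIMM13 and AMH had their lowest values in males 1 and 5. TIMM13, a mitochondrial import protein, had 221, 226 and 245 TPM in the females and 106, 231 and 68.02 TPM in the males. REXO1li1, named for an RNA exonuclease, had 199, 174 and 270.5 TPM in the females and 62.5, 261 and 82.1 TPM in the males.

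The contig genes were shorter than the named chromosome genes in the annotation. Their rows spanned a median of 10177 bp, against 23568 bp on chromosomes, and 21443 against 53233 bp among genes with at least 1 TPM in every animal. In 41 contig genes the row starts within the first 10 bases of its contig, 32 of them at base 1, and these 41 carried 4.42% of the contig TPM. SYP is the strongest of them, followed by IDS, UNC13Ali1, TMPRSS9 and CDC34. Another locus with a strand overlapped 809 contig genes (57.3%, against 80.6% of the named chromosome genes), on the opposite strand for 605 and on the same strand for 310, and the 809 carried 67.5% of the contig TPM. RefSeq annotation of the older assembly TupChi_1.0 held the names of 318 contig genes as written and of 843 after removal of the suffix.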

How the data were processed

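RNA of 6 prefrontal cortex samples was sequenced. The authors mapped the reads to TS_3.0 with HISAT2 2.2.1 and measured a merged annotation in each animal with StringTie 2.2.1. The deposited TPM values were used; the deposited FPKM values served as an alternative in the sex test and the deposited coverage values as an alternative for the contig share. The tables hold no counts and TPM, which summed to 950532 to 971492 per animal, keeps no depth, so no counting interval was computed. Contig classes came from the study's list.

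Python 3.11.15, numpy 2.4.6, pandas 2.3.3 and matplotlib 3.10.9 were used. Groups followed the sample titles. Log2(TPM + 1) was tested over the whole table with limma 3.58.1 in R 4.3.3 (at least 0.1 TPM in 3 animals, mean-variance trend, no covariate, Benjamini-Hochberg adjustment over 30270 loci, threshold 0.1). An exact two-sided permutation test compared the sums per animal. The limma fit was checked on simulated tables of 30270 loci with independent noise, where 50 of the stronger loci were changed at each log2 size from 1 to 4. It recovered 8, 33, 48 and 46 of them with 11 other calls, and made 0 calls without change. Alternatives were pseudocounts, filters, scalings, FPKM, coverage, rows kept apart, no trend, stranded loci alone, the replicate number as a block, and each animal left out.

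Genes are named when they are among the 12 strongest, the 6 strongest with or without a chromosome row (by base name, as no exact name was shared), the 5 with the smallest p in each direction, the 5 highest or lowest in CV at a mean of at least 10 TPM, present in 1 sex, the first 4 of a gene list with at least 5 TPM, or on the 5 contigs with the most TPM. Other genes were named after their values were seen. Some genes that this rule names are not reported here. The members and lists were chosen with earlier results of these data known. Nothing states that samples were other than 1 library per animal, and p-values measure the spread between these libraries.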

Additional observations from a re-analysis of the deposited data

How the results depend on the processing

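The contig share of library TPM and the sum over Y-linked contigs kept their direction under each of their alternatives. For the Y-linked sum this direction was built into the choice of the contigs. The exact permutation p of the share was 0.2 and lay between 0.1 (without male 4, where the difference was 0.632 points) and 0.75 (without males 1 and 5). That of the Y-linked sum was 0.1 and 0.25 without males 1 and 5, where a single male remains. In the limma test, the sex differences of the 5 genes with the smallest p in each direction were reversed by no alternative run. These genes were picked by p and did not overlap between the sexes, so leaving animals out could not reverse them. The differences of other single genes were not compared between alternatives. The number of contig genes called was 0, and 1 (TXLNGli1) with a filter of 1 TPM, without the trend and among loci with a strand alone. TXLNGli1 passed the filter only through the males, where it was high. With each animal left out the number of contig genes called was 0 in every case. The count at an unadjusted p under 0.05 and higher in females was 30, lay between 16 and 76 with 1 animal left out (16 without female 1, 16 without male 5, 76 without male 4), and was 11 without males 1 and 5. The count higher in males was 5, lay between 3 (without female 1) and 10 (without male 1) with 1 animal left out, and was 8 among loci with a strand alone, 8 with TPM rescaled to these loci and 13 without males 1 and 5. The median log2 difference of 0.14 lay between 0.07 (without male 1) and 0.22 (without male 4) with 1 animal left out and became −0.0085 without males 1 and 5, an alternative chosen after seeing the data that leaves 1 male, assumed to vary like the females. The X-linked sum difference of 405.5 TPM became −134 TPM with rescaled TPM, and ranged from −49.9 TPM (without male 5) to 1204 TPM (without male 1) with 1 animal left out. The Autosome-linked difference of 4350.4 TPM was −30.8 TPM without males 1 and 5, a comparison with 1 male that has no spread of its own. The cause of these changes was not tested. Contig genes with a chromosome row numbered 0 by exact name and 847 when the contig name without its suffix was looked up among chromosome names as written, TSORF names included. The 35 base names with over 90% of their TPM on contigs were 33 among those with at least 5 TPM.

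Replicate numbers 1 and 4 occur in both sexes but belong to different animals, and deviations of same-numbered animals correlated at −0.0048 and 0.0376, so the numbers share only a name. With the replicate number as a block, 0 contig genes were called, and at an unadjusted p under 0.05 there were 24 with females and 3 with males as the higher sex. The planned contig part of genes with rows of the same name in both places could not be computed, because no exact name was shared. Without counts, no counting interval can be set on low values, and genes listed at 0 may be unexpressed or not measured.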
